A study of Homo sapiens with 4 samples.

Results

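STK25 is a serine/threonine kinase whose transcript carries a seed site for miR-4800-3p in its 3' untranslated region (3' UTR). It was followed here with 7 genes that encode its closest paralog and its protein partners: STK24, PDCD10, STRN, STRN3, STRN4, MOB4 and CAB39. The 8 genes were taken by symbol from the 26255 symbols listed in each library, and all 8 were found in all 4 libraries. RNA came from 2 human pancreatic tumour lines, MIA PaCa-2 and PSN-1, each transfected with a miR-4800-3p mimic or with a negative control (scramble) oligonucleotide, to look for messenger RNAs that the microRNA targets. Both control libraries therefore come from transfected cells. Each combination of line and oligonucleotide had 1 library, so within a line no value has a replicate and no test was possible. Levels are FPKM (fragments per kilobase of transcript, scaled to the fragments mapped in the library), a unit that can be compared between genes of one library.

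STK25, STK24 (also called MST3) and STK26 (MST4) are closely related kinases of the Ste20 family. PDCD10, also known as CCM3, binds these kinases and links them to the striatins STRN, STRN3 and STRN4. The striatins are scaffolds that also bind the protein phosphatase PP2A, and with adaptors such as MOB4 they make up STRIPAK, the striatin-interacting phosphatase and kinase complex. STRIPAK is known as a brake on the Hippo kinases, while STK25 outside it has roles at the Golgi, in cell shape and in lipid storage. CAB39, or MO25, is not a core STRIPAK subunit: it is a scaffold that activates the tumour suppressor kinase LKB1 with STRAD, and it also binds STK24, STK25 and STK26.

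The lines were checked against markers. The keratin genes KRT8, KRT18 and KRT19 were between 78.2 and 923 FPKM in every library. The junction gene CDH1 was at most 1.51 FPKM, EPCAM was at 0.139 and 0.104 FPKM in MIA PaCa-2 against 28.4 and 24.1 in PSN-1, and KRT7 was listed at 0 in MIA PaCa-2 against 287 and 406 FPKM in PSN-1. VIM, a mesenchymal filament gene, was between 1144 and 4401 FPKM. The other mesenchymal markers were ZEB1, between 19.8 and 30.5 FPKM, and CDH2. CDH2 was listed at 0 in MIA PaCa-2 and was at most 0.0514 FPKM in PSN-1. Of 12 leukocyte, endothelial, fibroblast, acinar and islet markers, CD3E, AMY2A, INS and GCG were listed at 0 throughout and PTPRC was at most 0.433 FPKM. COL3A1 (36.1 and 45.6 FPKM), PRSS1 (17.4 and 20.6) and COL1A1 (10.2 and 12.6) were the highest of these in PSN-1, followed by CD14 (2.70 and 4.95) and PECAM1 (1.27 and 1.58). In MIA PaCa-2 COL3A1 was at 7.03 and 7.72 FPKM, and CD14 was at 0.731 and 0.876. The part of such transcripts in the results was not tested. The most common low values, read as single fragments, put 1 FPKM at an estimated 12.6 to 15.9 fragments per kilobase. Each of the 8 genes then rested on about 781 to 14653 fragments per library, if the length of its principal annotated transcript applies.

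The sequences that tie STK25 to the mimic are the mature microRNA and its matches in the kinase transcripts. They are printed 5′ to 3′, with the microRNA seed (bases 2 to 8) and the bases matching it in capitals.
hsa-miR-4800-3p: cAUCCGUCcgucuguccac
STK25 site: tcgaaacttccctgtGACGGATtcct
STK24 match: ccctgtcttgtgttgaACGGATgtgt
The microRNA sequence is from RefSeq (GRCh38.p14, chromosome 4, 2250091 to 2250109, minus strand), and the matches are from GENCODE transcripts (GRCh38, another build than that of the deposited values).

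The STK25 site is the 7-base match GACGGAT on chromosome 2, 241494897 to 241494903, minus strand, 758 bases after the stop codon. STK24 held only the 6-base core ACGGAT, on chromosome 13, 98448632 to 98448637, minus strand, 4535 bases into a 3' UTR of 7988 bases. Of 6 coding STK24 transcripts with an annotated 3' UTR, 1 contained this match. PDCD10, the 3 striatin genes, MOB4 and CAB39 held no ACGGAT in their longest 3' UTR, and none of the 8 genes held a 7-base or 8-base match in its coding sequence. Among 18180 genes with an annotated 3' UTR, 1.40% held GACGGAT and 5.34% held ACGGAT, on the strand of the transcript. These counts cover the longest annotated 3' UTR of each gene, and whether the cells used a site was not measured.

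The site was not shared by all annotated STK25 transcripts. Of 8 coding transcripts with an annotated 3' UTR, 3 contained it, with 3' UTRs of 2988, 955 and 955 bases. The other 5 had 3' UTRs of 30 to 645 bases, which end before the site. The deposited values are per gene, so the share of STK25 transcripts with the site in these cells is not known.

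STK25 was somewhat lower with the mimic in both lines, and in neither by as much as 1.5-fold. In MIA PaCa-2 the level was 54.4 FPKM (mimic) and 58.3 FPKM (scramble). In PSN-1 the levels were 21.5 and 25.4 FPKM, in the same order. The gap between the oligonucleotides was small beside the gap between the lines, and the PSN-1 values lay below both MIA PaCa-2 values. The log2 change, taken on (FPKM + 1) here and below, was -0.10 in MIA PaCa-2, with an estimated counting error of 0.035 (SE). In PSN-1 it was -0.23, with a counting error of 0.052. These errors leave out any spread between cultures, and in bulk RNA a lower level in every cell cannot be told apart from loss in some of the cells. In the PSN-1 pair, genes with GC-rich 3' UTRs tended to have lower changes (Spearman -0.219 across 11067 genes), and with that trend removed the STK25 change there was -0.14.

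**Figure D1:**
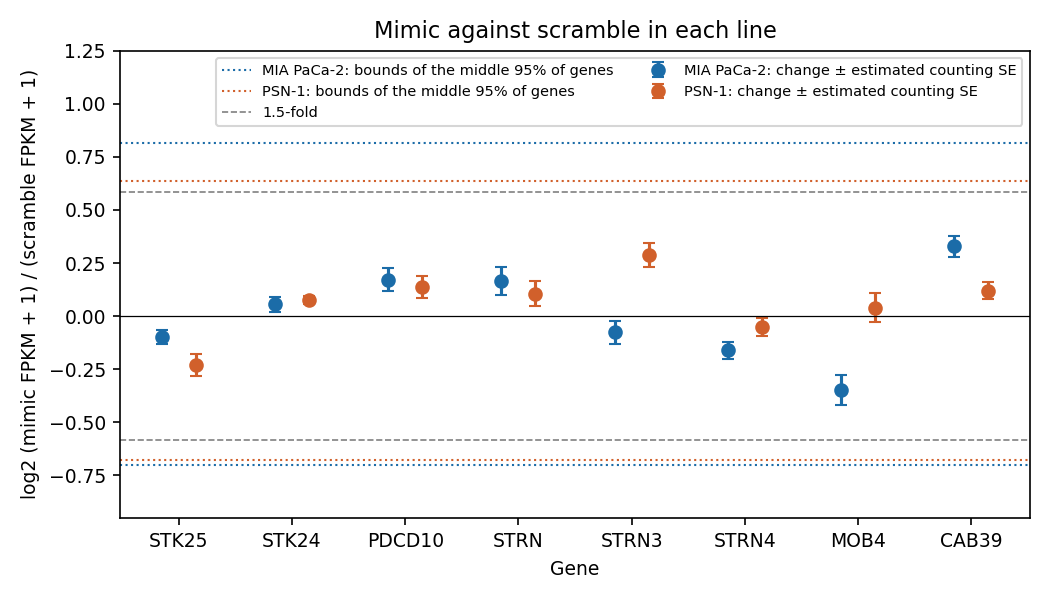
Log2 change of each gene with the mimic against the scramble (vertical axis) in MIA PaCa-2 and PSN-1, 1 pair of libraries each, with bars for the estimated counting error (SE). All 16 points lie inside the dashed lines at 1.5-fold and inside the dotted bounds of the middle 95% of genes, and the lowest is MOB4 in MIA PaCa-2 at -0.35.

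Over both lines, limma with the cell line as a block gave STK25 a log2 change of -0.16 (SE 0.12, 95% interval -0.48 to 0.15, adjusted p = 0.764). Each gene has 1 residual degree of freedom here, from how far the lines disagree, and limma's trended prior, learned from all genes, brings the total to 5.07, so most of the spread is borrowed. STK25 was lower in 2 of 2 lines. The interval includes no change and also a fall of 0.48 on the log2 scale.

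Set among other genes with a seed site, STK25 was not near the low end. In MIA PaCa-2, 138 of 251 genes with a 7-base or 8-base site had a lower change than STK25, and the median of those genes was -0.12. In PSN-1, 97 of 286 did, also with a median of -0.12. Among genes that, like STK25, have GACGGAT without the longer match, 79 of 142 were lower than STK25 in MIA PaCa-2, and PSN-1 had 59 of 158. Among all genes, 33.8% of 11484 had a lower change than STK25 in MIA PaCa-2, and for PSN-1 the share was 21.4% of 12233.

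**Figure D2:**
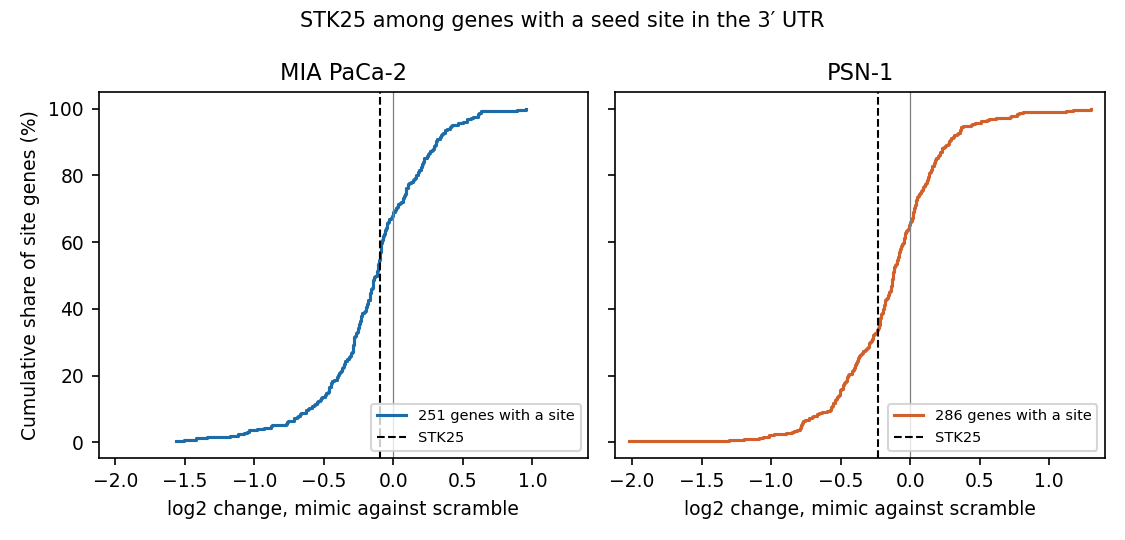
Cumulative share of genes with a 7-base or 8-base seed site in the 3' UTR (vertical axis, percent) by log2 change with the mimic, for 251 genes (MIA PaCa-2) and 286 genes (PSN-1). The dashed line marks STK25, at -0.10 and -0.23, where 138 and 97 site genes lie further left.

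The paralog STK24, whose kinase also binds PDCD10, was nearly level between oligonucleotides. Its level in MIA PaCa-2 was 30.8 FPKM (mimic) and 29.6 FPKM (scramble), a log2 change of 0.055. In PSN-1 it was 98.1 and 93.0 FPKM (0.077, or 0.15 with the GC trend removed). STK26, the third of these related kinase genes, was at 18.1 (mimic) and 18.6 FPKM (scramble) in MIA PaCa-2, and its PSN-1 levels were 29.46 and 28.98 FPKM. Neither of these kinase genes was lower with the mimic in both lines on the deposited values, as STK25 was. With the GC trend removed, STK26 was also lower in both lines (-0.041 for MIA PaCa-2, -0.037 for PSN-1). Its PSN-1 change on the deposited values was 0.023, with a counting error of 0.055. The difference between the genes was not tested.

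PDCD10, the adaptor of these kinases, was a little higher with the mimic in both lines, as were 28.1% of 10678 genes. Mimic and scramble levels were 56.3 and 49.9 FPKM for MIA PaCa-2, then 58.3 and 52.9 FPKM for PSN-1, with log2 changes of 0.17 and 0.14 and counting errors of 0.053 and 0.051. With the GC trend removed the PSN-1 change was 0.078. Over both lines limma gave 0.15 (SE 0.11, 95% interval -0.13 to 0.44, adjusted p = 0.755).

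The striatin scaffold genes had small changes of mixed sign with the mimic, none of them called in limma, and the differences between them were not tested. STRN had mimic and scramble levels of 9.57 and 8.42 FPKM in MIA PaCa-2 and of 11.4 and 10.5 FPKM in PSN-1. Its log2 changes were 0.17 and 0.11, the latter 0.066 with the GC trend removed. STRN4, the most abundant of the 3 in every library, was at 63.2 (mimic) and 70.9 FPKM (scramble) in MIA PaCa-2. Its PSN-1 levels were 46.5 and 48.3 FPKM. The log2 changes were -0.16 and -0.052, and the second was 0.062 with the GC trend removed. STRN3 had opposite signs in the lines. Its MIA PaCa-2 levels were 25.3 (mimic) and 26.8 FPKM (scramble), a change of -0.076, and its PSN-1 levels were 25.7 and 20.9 FPKM, a change of 0.29. The PSN-1 change of STRN3 was larger in size than 71.1% of changes in that line.

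MOB4, also called phocein, and the scaffold gene CAB39 had the largest changes of the 8 in MIA PaCa-2. MOB4 was there at 13.8 (mimic) and 17.8 FPKM (scramble), a log2 change of -0.35 with a counting error of 0.070, while its PSN-1 levels were 15.97 and 15.50 FPKM (0.040). CAB39 was at 40.0 (mimic) and 31.6 FPKM (scramble) in MIA PaCa-2 (0.33, counting error 0.048). Its PSN-1 levels were 47.9 and 44.0 FPKM (0.12). MOB4 is annotated with a read-through gene, HSPE1-MOB4, listed at 0.767 and 0.605 FPKM in MIA PaCa-2 and at 0 in PSN-1, so its fragments can be divided between symbols. It also overlaps HSPD1, a highly expressed gene (457 to 735 FPKM) on the opposite strand. STK25 and FARP2, at 3.56 to 8.96 FPKM, overlap in the same way, and the sources used here do not say whether the counting used strand.

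None of the 8 genes passed 1.5-fold in either line, where 9.49% (MIA PaCa-2) and 7.04% (PSN-1) of all genes did. The median change of the 8 was -0.011 for MIA PaCa-2 and 0.091 for PSN-1, beside 0.014 and -0.016 over all genes measured. Signs were the same in both lines for 6 of the 8 genes, beside 55.8% of 10678 genes. In limma 0 of the 8 were called at an adjusted p under 0.05, where 0.0563% of 12423 genes were called, and 0 had an unadjusted p under 0.05, against 8.44% of all genes. The lowest adjusted p among them was that of CAB39 (0.686, log2 change 0.22, SE 0.13, 95% interval -0.096 to 0.54 in limma).

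The wider STRIPAK list had larger changes in single subunits. Of 12 other scaffold, adaptor and phosphatase genes, 10 were measured in each line, 0 passed 1.5-fold in MIA PaCa-2 and 2 did in PSN-1, both higher, where 3.17% of genes were higher past that fold. PPP2R1B, the less abundant of the PP2A scaffold subunit genes, had levels of 22.5 (mimic) and 12.3 FPKM (scramble) in PSN-1, a log2 change of 0.82. In MIA PaCa-2 they were 21.4 and 14.6 FPKM (0.52). Over both lines limma gave it 0.67 (SE 0.15, 95% interval 0.29 to 1.05, adjusted p = 0.390), so it was not called. STRIP2, a scaffold protein of the complex, was at 14.4 (mimic) and 7.67 FPKM (scramble) in PSN-1, and its MIA PaCa-2 levels were 1.58 and 1.35 FPKM (0.83 and 0.14). It was not called over both lines either (adjusted p = 0.628 in limma). The catalytic subunit gene PPP2CA was at 69.9 (mimic) and 64.9 FPKM (scramble) in MIA PaCa-2 and had 63.0 and 57.6 FPKM in PSN-1. The list medians were 0.12 (MIA PaCa-2) and 0.10 (PSN-1).

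In 5 lists of genes around the complex, 0 genes passed 1.5-fold in MIA PaCa-2, where 9.49% of all genes did, and 2 passed it in PSN-1, where 7.04% did. Each list had 4 to 11 measured genes in MIA PaCa-2 and 4 to 12 in PSN-1. PDCD10, MOB4 and CAB39, given above, are also in these lists. Of the cerebral cavernous malformation genes that work with PDCD10, HEG1, a receptor at the cell surface, was at 33.6 against 67.8 FPKM in PSN-1 (log2 change -0.99), and it was at 1.15 and 0.623 FPKM in MIA PaCa-2. Among 13 other Ste20 kinases, STK39, which acts on ion transporters, was at 8.38 against 13.6 FPKM in PSN-1 (-0.64). Of the 11 measured in MIA PaCa-2, 0 passed 1.5-fold. There STK39 was at 0.983 (mimic) and 0.793 FPKM (scramble), and both it and HEG1 were below the filter on low values. Over both lines limma called neither HEG1 (adjusted p = 0.855) nor STK39 (adjusted p = 0.824). None of the 5 genes of the MO25 and LKB1 complex, the 6 measured MOB genes or the 8 Golgi, cytoskeleton and kinase partners passed 1.5-fold in either line.

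STK24 and STK25 differed far more between the lines than between the oligonucleotides, and in opposite directions. STK24 was 93.0 FPKM in PSN-1 and 29.6 in MIA PaCa-2 in the scramble libraries, a ratio of 3.14, and the ratio was 3.18 in the mimic libraries. STK25 was lower in PSN-1, with ratios of 0.435 and 0.395. For both genes the 2 libraries of one line lay wholly apart from those of the other.

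**Figure D3:**
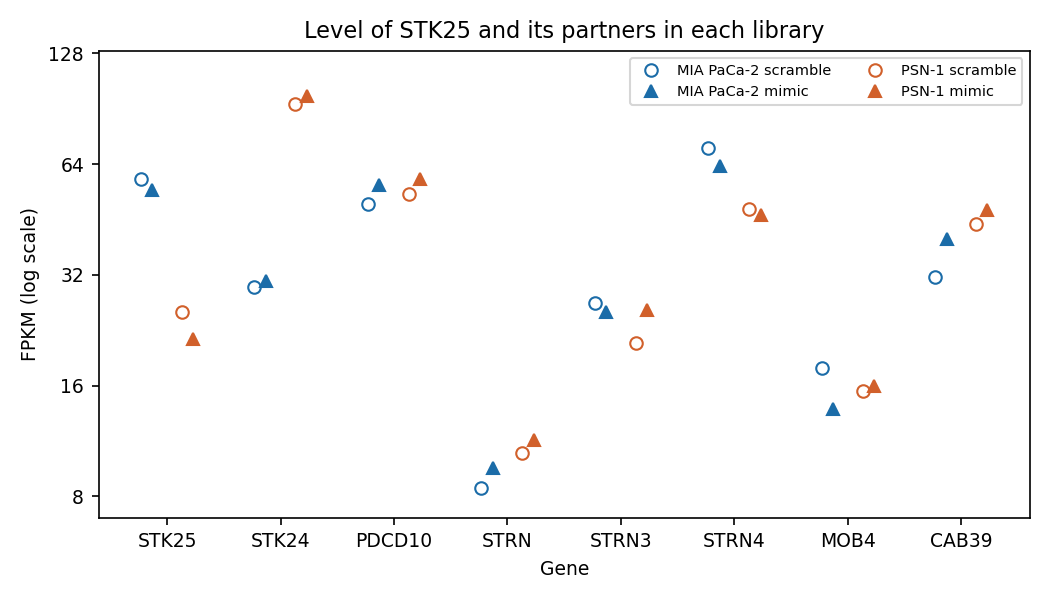
FPKM of each gene on a log scale (vertical axis) in each of the 4 libraries, scramble as open circles and mimic as filled triangles. STK25 is higher in MIA PaCa-2 (54.4 and 58.3 FPKM) and STK24 in PSN-1 (98.1 and 93.0 FPKM), while PDCD10 lies between 49.9 and 58.3 FPKM throughout.

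In limma, with the oligonucleotide as a block, 3 of the 8 genes were called between the lines, where 56.4% of all 12423 genes were, so a call of this kind is common here. STK24 was higher in PSN-1 by 1.63 on the log2 scale (SE 0.11, 95% interval 1.35 to 1.91, adjusted p = 0.000389). STK25 had a log2 difference of -1.23 (SE 0.12, 95% interval -1.55 to -0.92, adjusted p = 0.00114), and STRN4 of -0.49 (SE 0.11, adjusted p = 0.0163). A difference at least as large in size was found in 15% of genes for STK24, 22.1% for STK25 and 55.5% for STRN4. Each line is represented by 2 libraries that differ in oligonucleotide and so were transfected separately. The labels do not say whether the cells were plated independently. The p-values rest on how far the line difference varies between the oligonucleotides, with 1 residual degree of freedom, and on limma's prior from all genes. They do not measure a spread between repeat cultures given the same oligonucleotide.

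The remaining partners were not called between the lines. CAB39 had a difference of 0.36 (SE 0.13, adjusted p = 0.0589 in limma), STRN of 0.26 (SE 0.14, 95% interval -0.11 to 0.63) and STRN3 of -0.16 (SE 0.15, 95% interval -0.55 to 0.22). The interval ran from -0.22 to 0.35 for PDCD10 and from -0.41 to 0.41 for MOB4.

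**Figure D4:**
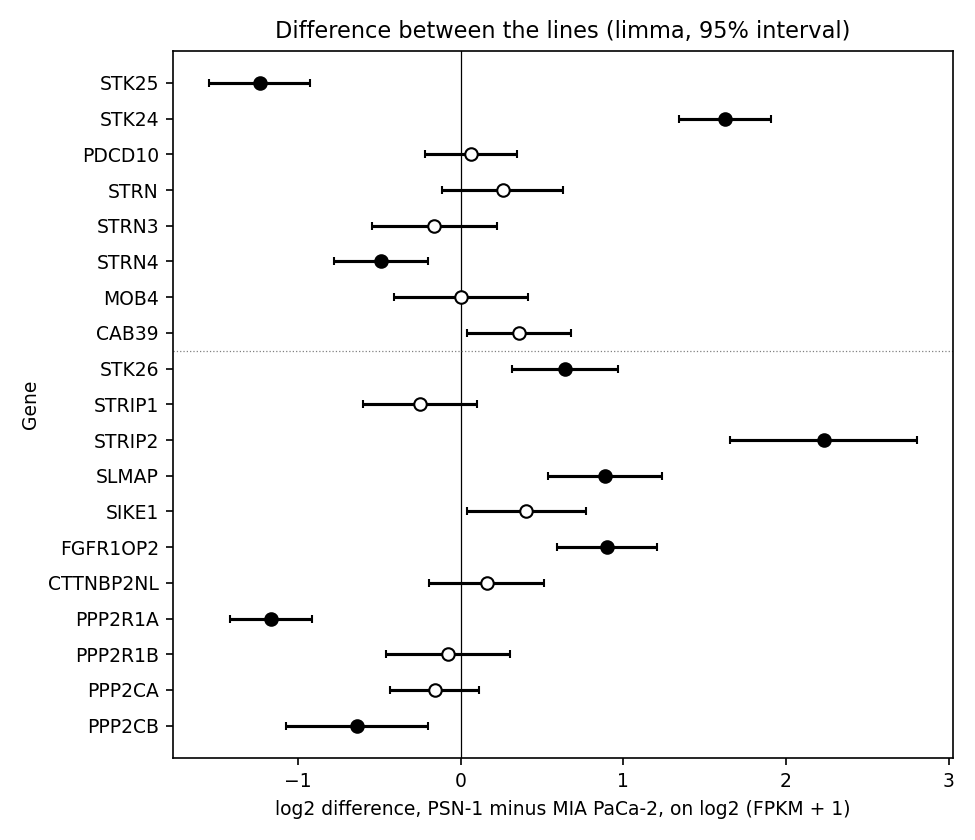
Difference between PSN-1 and MIA PaCa-2 on log2 (FPKM + 1) (horizontal axis) from limma, with 95% intervals, for the 8 genes above the dotted line and for STK26 and 10 other STRIPAK genes below it. Filled points have an adjusted p under 0.05; STK24 (1.63) and STK25 (-1.23) lie on opposite sides of 0.

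The makeup of the transcripts of the 3 related kinases differed accordingly. STK25 made up 52.6% of the summed FPKM of STK24, STK25 and STK26 in the MIA PaCa-2 mimic library and 54.7% in the scramble library, and 14.4% and 17.2% in PSN-1. STK24 made up 29.8% and 27.8% in MIA PaCa-2 and 65.8% and 63.1% in PSN-1, while STK26 was between 17.5% and 19.8% in all 4 libraries. The sum itself was 103 and 107 FPKM in MIA PaCa-2 and 149 and 147 FPKM in PSN-1. The ratio of STK24 to STK25 was 0.567 and 0.509 in MIA PaCa-2 and 4.57 and 3.67 in PSN-1, mimic library first. STK26 was called higher in PSN-1 (log2 difference 0.64, SE 0.13, adjusted p = 0.0104 in limma).

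**Figure D5:**
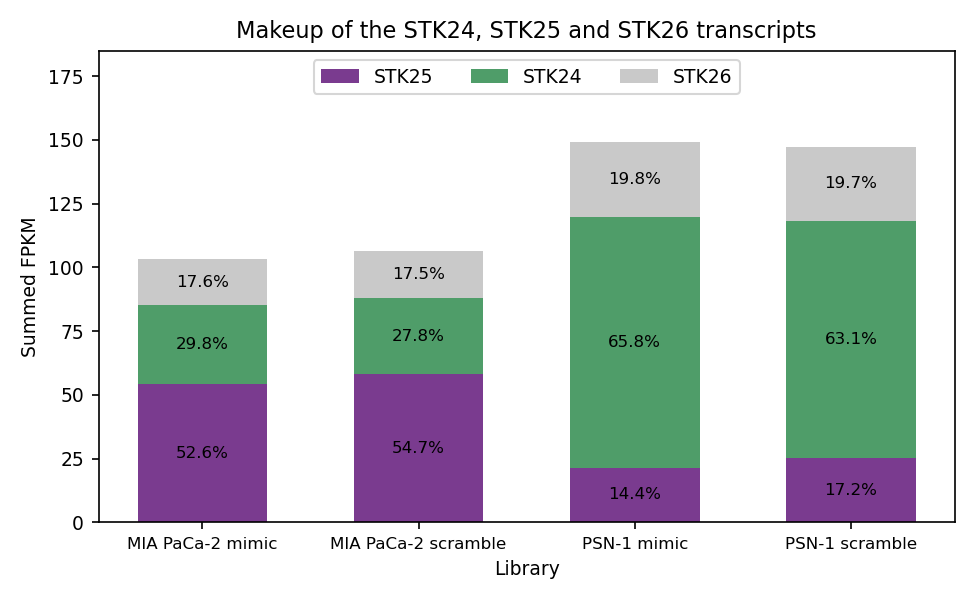
Summed FPKM of the kinase genes STK24, STK25 and STK26 (vertical axis) in each library, split by gene with the percent of the sum in each block. STK25 is the largest block in MIA PaCa-2 (52.6% and 54.7%) and the smallest in PSN-1 (14.4% and 17.2%).

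Relative to the summed kinases it binds, PDCD10 was lower in PSN-1: it was 0.545 and 0.468 of that sum in MIA PaCa-2 and 0.391 and 0.359 in PSN-1. The striatins summed to 98.1 and 106 FPKM in MIA PaCa-2 and to 83.6 and 79.6 FPKM in PSN-1. STRN4 was 64.4% and 66.8% of the striatin sum in MIA PaCa-2 and 55.6% and 60.6% in PSN-1, and STRN was the least abundant in all libraries, at 7.94% to 13.6%. CAB39 was 91.2% to 93.1% of the summed FPKM of CAB39 and its paralog CAB39L.

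In order of level, STRN4 led in both MIA PaCa-2 libraries and STK24 in both PSN-1 libraries. STK25 and PDCD10 followed in MIA PaCa-2, with ranges that overlapped (54.4 to 58.3 and 49.9 to 56.3 FPKM), then CAB39, STK24, STRN3, MOB4 and STRN. In PSN-1 PDCD10 was next, then CAB39 and STRN4, whose ranges overlapped, and then STK25 (21.5 to 25.4 FPKM) and STRN3 (20.9 to 25.7), which also overlapped. MOB4 and STRN were the lowest pair in every library.

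The other STRIPAK genes differed between the lines in both directions. Of 10 measured in the fit, 3 were called higher in PSN-1 and 2 lower, near the share for all genes. STRIP2 had the largest difference (2.23, SE 0.22, adjusted p = 0.00122 in limma). FGFR1OP2 (0.90) and SLMAP (0.89), which encode parts of the arm that joins STRIPAK to the Hippo kinases, were also higher. PPP2R1A, the main PP2A scaffold gene, was at 173 and 181 FPKM in MIA PaCa-2 and 80.4 and 76.5 in PSN-1 (-1.16, SE 0.099, adjusted p = 0.000748 in limma), and PPP2CB had a difference of -0.63. TRAF3IP3 was listed at 0 in all libraries and CTTNBP2 was at most 0.384 FPKM.

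Genes next to STK25 on chromosome 2 were also lower in PSN-1. Of the 17 nearest measured protein-coding genes, 10 on one side and 7 on the other in the RefSeq gene order, 16 had a negative difference and 12 were called lower by limma, where 27.3% of all genes were called lower. SEPT2 was at 142 and 136 FPKM in MIA PaCa-2 and 71.2 and 64.7 in PSN-1. THAP4 was at 110 and 103 FPKM against 38.0 and 46.8. HDLBP was at 204 and 197 FPKM against 115 and 104. The median difference of the 17 was -0.93, beside -1.23 for STK25. Around STK24 on chromosome 13, 12 of the 20 nearest measured genes were called higher in PSN-1 and 3 lower, with a median of 0.57, where 29.2% of all genes were called higher. FARP1, which overlaps STK24 on the opposite strand, was among those lower (-1.87). It was at 7.80 and 8.32 FPKM in MIA PaCa-2 and 1.57 and 1.38 in PSN-1. PDCD10 and STRN were not called between the lines themselves, and their 20 neighbours included 9 called higher and 3 lower for PDCD10 (median 0.35) and 8 higher and 2 lower for STRN (median 0.36). For STRN4, itself called lower, 3 of the 20 neighbours were called lower and 2 higher (median -0.20). That is below the share of all genes called lower (27.3%). Neighbours called higher and lower were 2 and 6 for MOB4 (median -0.31), 7 and 6 for CAB39 (0.13) and 4 and 6 for STRN3 (0.0097). These genes were looked at after the line difference was seen, and SEPT2, THAP4 and HDLBP were chosen after their values were seen. The filter on low values pooled both lines, so a neighbour absent from one line was kept only for its level in the other. Examples among those called are CLDN10 near STK24 (0 in MIA PaCa-2, 7.56 and 6.99 FPKM in PSN-1) and MFSD1 near PDCD10 (0, then 31.3 and 29.8). KIF1A near STK25 was the reverse (11.7 and 6.67 FPKM, then 0). The shares of all genes rest on the same filter, and counts without such genes were not made.

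The genes whose 4 levels were nearest to those of STK25, among 9315 others with a mean of at least 5 FPKM, were WDR18, GAA, MRPL15, MALL and C21orf33. Nearness was the Euclidean distance of log2(FPKM + 1) over the 4 libraries, from 0.129 for WDR18 to 0.236 for C21orf33, against 3.08 for the paralog STK24. WDR18, a factor of ribosome maturation, was at 50.3 and 60.5 FPKM in MIA PaCa-2 and 22.0 and 25.1 in PSN-1. GAA, the lysosomal enzyme that breaks down glycogen, was at 50.8 and 53.8 FPKM and at 22.1 and 23.8. With 4 libraries of 2 lines, this likeness is mainly that of level and of the line difference.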

How the data were processed

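For each of the 4 libraries, made with a stranded mRNA kit per the labels' protocols, the authors deposited 1 FPKM value for every gene symbol, per the file headers. TopHat2 2.1.1, Cuffdiff 2.2.1 and build hg19 appear in the submitters' processing notes without their roles. The annotation and strand setting behind the values, and any scaling of libraries, were not stated in the sources used here. Since FPKM is set against the whole library, abundant genes can move the rest.

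The 8 genes, the gene lists and the tests were chosen with earlier results of these data known. Named genes were the 8 members, list genes past 1.5-fold or called between the lines, and the 5 genes nearest to STK25; further list genes are named for comparison. Changes were log2((mimic FPKM + 1)/(scramble FPKM + 1)) where a gene averaged 1 FPKM or more in the line (for limma, over all 4 libraries). Line and oligonucleotide were fitted as terms in limma 3.58.1 under R 4.3.3, with a trended eBayes variance, two-sided p and Benjamini-Hochberg adjustment over 12423 genes. Relative depth was the most common ratio between libraries of FPKM values under 0.3. The absolute scale was the most common product of FPKM, under 0.1, and transcript length, taken as 1 fragment. It came from genes with a single transcript of 1000 bases or more, taking fragments as 200 bases long. Counting errors cover counting only. Sites were searched in GENCODE 29 (GRCh38), joined on symbol: 18180 symbols had a 3' UTR, including 11175 of the 12423 genes in the limma fit. The GC trend was a lowess curve (statsmodels 0.14.6). Other scalings, pseudocounts, filters and models were tried. Computations used Python 3.11.15, numpy 2.4.6 and pandas 2.3.3.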

Additional observations from a re-analysis of the deposited data

Results flagged for a closer look

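STRN3 and MOB4 had changes of opposite sign in the lines. For STRN3 the PSN-1 change exceeded that in MIA PaCa-2 by 0.36 on the log2 scale, and for MOB4 by 0.39. With 1 pair of libraries per line, neither difference was tested. The MOB4 change in PSN-1 was 0.040, less than its counting error of 0.069, and it was -0.0045 with the GC trend removed. With that trend removed STRN4 also had opposite signs (-0.17 for MIA PaCa-2, 0.062 for PSN-1), while MOB4 was negative in both.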

How the results depend on the processing

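With a log2 change of 0.32 in place of 1.5-fold, 2 of the 8 genes, MOB4 and CAB39, counted as changed in MIA PaCa-2, where 28% of genes did, and 0 in PSN-1, where 24.3% did. Without STK26 in the sum, STK25 made up 63.8% (mimic) and 66.3% (scramble) in MIA PaCa-2 and 18.0% and 21.4% in PSN-1. STK25 was lower with the mimic in both lines under every scaling, pseudocount and GC setting run. Over both lines 0 of the 8 genes were called by limma under any setting run. The calls of STK24, STK25 and STRN4 between the lines held under every limma setting run. With TPM scaling CAB39 was also called (log2 difference 0.40, adjusted p = 0.0364 in limma). In the scramble or mimic libraries alone, 2 genes, STK24 and STK25, passed 1.5-fold between the lines. The labels carry no replicate numbers, so libraries were paired by cell line alone, and without that block limma also called 0 of the 8 genes. With 1 library per group, no library could be left out of a comparison within a line. Depth is an estimate, and counting errors of 0.018 to 0.070 on the log2 scale limit what single changes show.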
